A study of Mus musculus with 2 samples.

Results

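Malat1 is a long noncoding RNA that stays in the nucleus, and it was followed here as a gauge of how much nuclear RNA each droplet barcode held. It was taken by its feature row, 1 of 32285 gene rows (ENSMUSG00000092341), and its share of all UMIs, the counted RNA molecules, was read in every class of barcode and in single cells. The samples were E14 mouse embryonic stem cells of the 129/Ola background, grown in serum medium with leukemia inhibitory factor (LIF) on gelatin. They were lipofected with control siRNA (control, 1 library) or with siRNA against Son (sonKD, 1 library), and harvested 24 h later. Both suspensions were frozen, thawed, sorted for cells that exclude the dye 7-AAD, and carried through droplet-based 3′ single-cell RNA sequencing. Son encodes a scaffold protein of nuclear speckles, the bodies in which Malat1 also collects. With 1 library per group there is no replicate and therefore no test of the knockdown. Every interval covers counting error only, and effects of the knockdown cannot be told apart from differences between the libraries.

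Malat1 is among the most abundant noncoding transcripts of mammalian cells. Its RNA is transcribed by RNA polymerase II, and its 3′ end is not made by ordinary cleavage and polyadenylation: RNase P cuts the precursor just after a genomically encoded run of A, the run folds into a triple helix with 2 upstream stretches of U, and the released piece becomes a small tRNA-like RNA. Because the RNA remains with chromatin and speckles, a high Malat1 share is widely used in single-cell work as a sign that a barcode holds nuclear RNA. The chemistry here primes on A runs.

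The gene lies on the minus strand at chr19:5795690-5802672 (GRCm38, the mm10 build of the files) and is annotated as a lincRNA. Its main transcript in GENCODE M21 is a single exon of 6983 bases, 1 of 4 annotated for the gene. The transcript holds 1 run of at least 8 A, and this run is 12 bases long at positions 6674 to 6685, counted from the 5′ end. The run leaves 298 bases of the annotated transcript downstream. The window around this encoded A run and the annotated end are the places on the RNA where an oligo(dT) primer could be expected to meet A, so both are shown 5′ to 3′. In the first line, chr19:5795913-5796089, capitals mark the A run, with the tRNA-like stretch after it. In the second line, chr19:5795690-5795749, capitals mark the last AATAAA, the usual polyadenylation signal.
Malat1 encoded A run: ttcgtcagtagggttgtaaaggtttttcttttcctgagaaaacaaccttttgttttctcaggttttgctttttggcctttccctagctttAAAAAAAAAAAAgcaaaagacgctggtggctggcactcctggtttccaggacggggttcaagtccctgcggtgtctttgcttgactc
Malat1 annotated end: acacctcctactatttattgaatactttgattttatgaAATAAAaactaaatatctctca
AATAAA occurs 4 times in the transcript, and the last copy ends 16 bases before its end. A run of 12 A is found in the longest transcript of 7.64% of 32158 genes, and in 23.4% of the 1468 genes whose longest transcript has 6000 to 8000 bases. The search covered the transcript strand only. The files give 1 count per gene and barcode, so at which A run the Malat1 reads were primed was not tested.

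The control library held 71046373 UMIs and the sonKD library 60352438, of which Malat1 had 231070 and 152814. Cells were barcodes with at least 2500 UMIs, at least 1000 genes and at most 10% of UMIs from mitochondrially encoded (mt-) genes. There were 4978 control cells with a median of 7737.5 UMIs and 2731 sonKD cells with a median of 11612. Only 2 cell barcodes occurred in both libraries. Son itself was at 169 CPM (UMIs scaled to a fixed total) in control cells against 106 CPM in sonKD cells, a log2 ratio of -0.67 (interval -0.73 to -0.61). All 9 pluripotent markers reached 10 CPM in both libraries, with summed levels of 8595 and 9353 CPM. No marker of primitive endoderm, trophectoderm, fibroblasts or feeders, neural cells, mesoderm or blood did. Their list sums stayed between 0 and 15.4 CPM, and Elf5, Postn, Lum and Hbb-bs had no UMI in cells of either library.

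Of the 3 barcode classes compared, the shallow one held the highest Malat1 share and that of 100 to 500 UMIs the lowest. In barcodes of 700 to below 2500 UMIs it made up 0.887% of control UMIs (95% interval 0.881 to 0.894, exact binomial, 5052 barcodes) and 0.668% of sonKD UMIs (0.661 to 0.677, 2373 barcodes). In barcodes of at least 2500 UMIs it made up 0.312% (0.310 to 0.314, 5604 barcodes) in control and 0.288% (0.287 to 0.290, 3789 barcodes) in sonKD. Among barcodes of 100 to 500 UMIs, taken here as near-empty droplets that hold free RNA, the share was 0.126% (0.124 to 0.128, 59886 barcodes) in control and 0.102% (0.100 to 0.103, 62449 barcodes) in sonKD. The order of the 3 classes was the same in both libraries, and no intervals of neighbouring classes overlapped. Cells, the part of the deepest class that passed the gene and mt- limits, had 0.263% (0.262 to 0.265) in control and 0.219% (0.218 to 0.221) in sonKD.

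**Figure D1:**
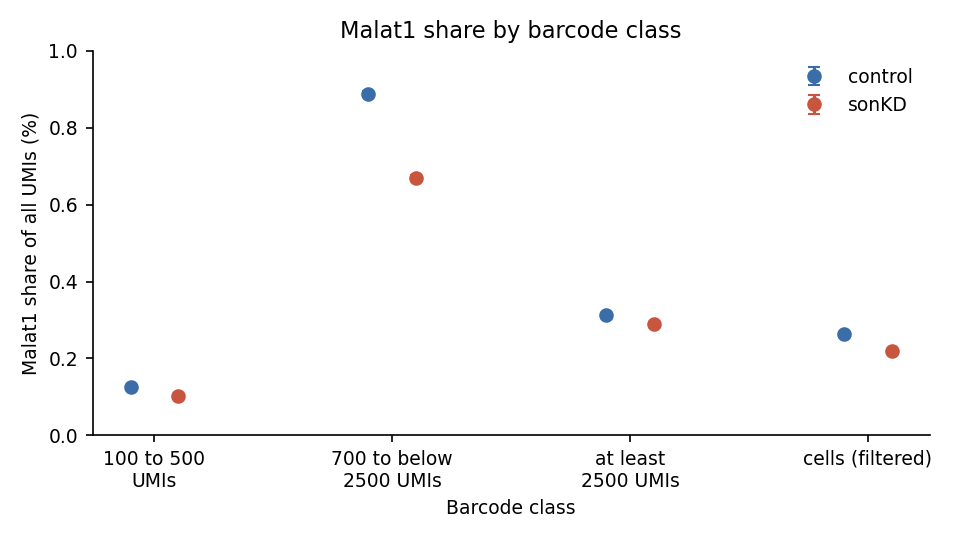
Malat1 share of all UMIs (percent, vertical axis) in each class of barcodes for control and sonKD, with exact binomial 95% intervals that cover counting error only and are smaller than the points. The class of 700 to below 2500 UMIs stands highest in both libraries, at 0.887% and 0.668%, and the class of 100 to 500 UMIs lowest.

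Counted as molecules, Malat1 was not most numerous where its share was highest. A control barcode held a mean of 13.4 Malat1 UMIs in the shallow class against 21.6 in cells, and a sonKD barcode held 11.2 against 25.7. The higher share of shallow barcodes thus came with fewer Malat1 molecules in a still smaller total. Among genes other than mt- and ribosomal protein genes, Malat1 ranked 1 by UMIs in the shallow class of both libraries. It ranked 17 in control cells and 18 in sonKD cells, and 53 and 81 in the 100 to 500 UMI class. At least 1% of all UMIs were Malat1 in 28.9% of shallow control barcodes and 19.4% of shallow sonKD barcodes. The same level was passed by 2.05% of control cells and 2.12% of sonKD cells. Among all barcodes of at least 2500 UMIs, without the gene and mt- limits of cells, it was passed by 8.01% in control and 11.3% in sonKD.

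Shallow barcodes carried more of several nuclear RNAs and of mt- transcripts, per UMI, than cells did. Malat1 was 3.37-fold higher there than in cells of the control (log2 1.75, interval 1.74 to 1.77) and 3.05-fold higher in sonKD (log2 1.61, 1.59 to 1.63). In control, 114 of the 8468 genes averaging 10 CPM or more had a larger ratio, and in sonKD 226 of 8320. Of the 19 measured nuclear noncoding RNAs besides Malat1, 13 were at least 1.5-fold higher in shallow control barcodes, where 16.6% of all genes were, and 12 in sonKD, where 20.2% of all genes were. None of them was 1.5-fold lower. Their median log2 ratio was 0.81 in control and 0.82 in sonKD, against 0.072 and 0.051 over all genes. Neat1, the architectural RNA of paraspeckles, was at 183 CPM in shallow control barcodes and 87.2 CPM in control cells, and at 379 and 224 CPM in sonKD. Kcnq1ot1, the imprinted antisense RNA retained at the Kcnq1 domain, differed less, with 211 and 182 CPM in control and 179 and 168 CPM in sonKD.

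The other gene groups of the shallow class moved apart from Malat1 or with it. All 13 mt- mRNAs were at least 1.5-fold higher than in cells in both libraries (median log2 2.15 and 2.20). The mt- share of the class was 16.8% in control and 20.2% in sonKD, against 3.82% and 4.19% in cells. Cells were chosen with a limit on mt- share and the shallow class was not, so part of these gaps is set by that choice. Barcodes of at least 2500 UMIs, taken without that limit, had mt- shares of 4.34% in control and 5.60% in sonKD. Cytosolic ribosomal protein mRNAs of the shallow class had medians of -0.68 and -0.78 against cells. Of 76 and 77 measured, 46 and 52 were at least 1.5-fold lower, where 11.9% and 15.3% of all genes were. Of 21 measured abundant cytoplasmic mRNAs, such as those of glycolytic enzymes and elongation factors, 17 were at least 1.5-fold lower in each library. Genes with a locus of at least 100 kb, whose long introns can give intronic reads, had a median of 0.29 in control and 0.22 in sonKD. The part of mt- transcripts, which change the total by which every share is divided, is shown by shares taken without them: Malat1 was then 1.07% of control UMIs and 0.838% of sonKD UMIs in the shallow class, against 0.274% and 0.229% in cells.

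Free RNA of the 100 to 500 UMI class held less Malat1 than cells, but several nuclear RNAs were lower there still. The Malat1 log2 ratio of this class over cells was -1.06 (interval -1.08 to -1.04) in control and -1.11 (-1.13 to -1.08) in sonKD. Over all genes the median was -0.81 and -0.87. Of 15 measured nuclear noncoding RNAs, 12 were at least 1.5-fold lower in each library, where 57.9% and 59.6% of all genes were, and the list medians were -2.13 and -2.86. Kcnq1ot1, for example, stood at 13.9 CPM in this class of the control and 6.92 CPM in sonKD. The other way, 2 in each library were at least 1.5-fold higher, where 5.64% and 4.45% of all genes were. These were Gm42418 and AY036118, gene models known to collect ribosomal RNA reads: Gm42418 was at 8668 CPM in free RNA and 778 CPM in cells of the control. Genes of at least 100 kb had medians of -2.25 and -2.51, while cytosolic ribosomal protein mRNAs were higher than in cells, with medians of 0.72 and 0.67.

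At cell depth the Malat1 share was much higher in barcodes with more than 10% mt- UMIs. Among control barcodes of at least 2500 UMIs, the share was 0.204% below 2% mt- UMIs (114 barcodes), 0.249% at 2 to 5% (3910 barcodes) and 0.354% at 5 to 10% (954 barcodes). It was 1.31% at 10 to 20% (560 barcodes) and 1.31% at 20 to 40% (66 barcodes), and the intervals of these last bins overlapped. In sonKD the bins in the same order gave 0.211% (22 barcodes), 0.205% (1984), 0.273% (725), 0.887% (711) and 0.916% (346). A single sonKD barcode at 40% or more had 0.495%. In sonKD the intervals of the lowest pair of bins overlapped, and so did those of the highest pair. The log2 ratio of the 10 to 20% bin over the 2 to 5% bin was 2.40 in control and 2.11 in sonKD.

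**Figure D2:**
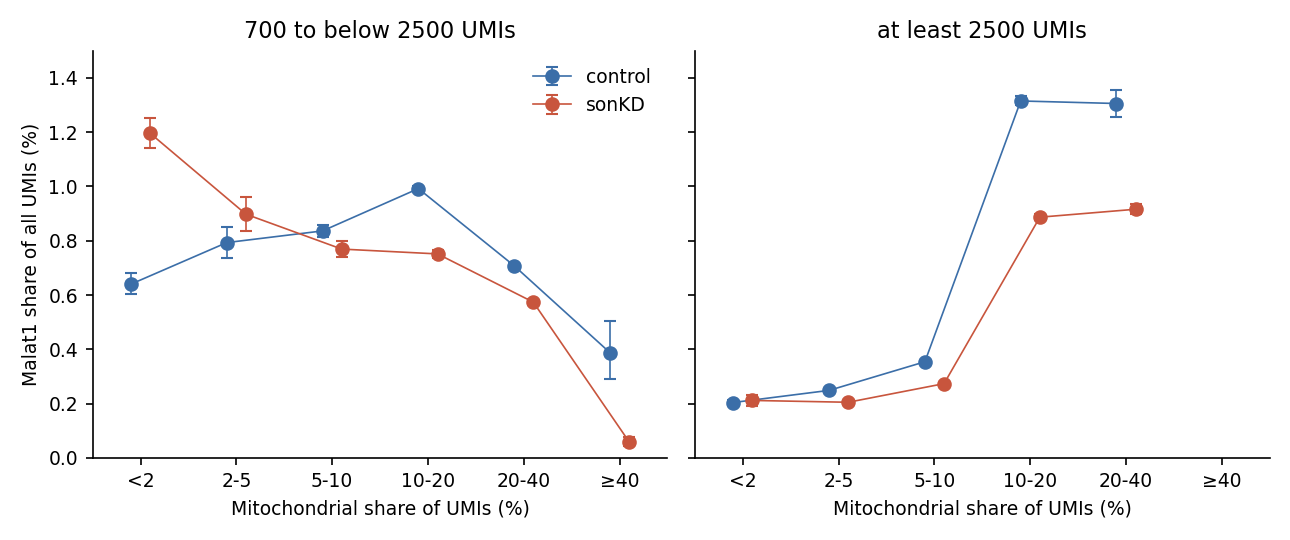
Malat1 share of all UMIs (percent, vertical axis) by the mt- share of a barcode (percent, horizontal axis), with 1 panel per depth class and exact binomial 95% intervals; bins of fewer than 10 barcodes are not drawn. At least 2500 UMIs, both libraries are much higher from 10% mt- UMIs upward; at 700 to below 2500 UMIs, control is highest at 10 to 20%, with 0.992%, while sonKD is highest, at 1.20%, below 2%, where the median barcode had 0.141%.

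The step at 10% mt- UMIs was also a step in molecules. Control barcodes of the 10 to 20% bin had a mean of 41.9 Malat1 UMIs from a median depth of 2990.5 UMIs, while those of the 2 to 5% bin had 21.5 from 8012.5. In sonKD the corresponding values were 32.1 Malat1 UMIs at a median of 3280 UMIs and 25.9 at 12193.5. Barcodes rich in mt- RNA thus held more Malat1 in all, although they held far fewer UMIs. Depth and mt- share moved together here, and their separate parts can be read only by crossing them. Between 2500 and 3500 UMIs, control barcodes above 10% mt- had a Malat1 share of 1.35% (492 barcodes) and those at or under it 0.630% (174). In sonKD the same pair was 0.939% (707 barcodes) and 0.850% (82). From 5000 UMIs upward the pair was 0.808% (15 barcodes) and 0.258% (4464) in control and 0.664% (81) and 0.210% (2559) in sonKD.

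Below cell depth the summed shares ran differently over the mt- bins of the libraries, while bin medians, not crossed with depth, ran alike. In control barcodes of 700 to below 2500 UMIs, the Malat1 share was 0.640% below 2% mt- (181 barcodes), 0.793% at 2 to 5% (68), 0.836% at 5 to 10% (437), 0.992% at 10 to 20% (2804) and 0.708% at 20 to 40% (1548). In sonKD the summed share was highest below 2%, at 1.20% (146 barcodes), and lower in each bin above: 0.898% (59), 0.769% (194), 0.751% (739) and 0.574% (1156). The intervals of the 5 to 10% and 10 to 20% bins overlapped in sonKD, as did those of the 2 to 5% and 5 to 10% bins in control. From 40% mt- UMIs upward the share in sonKD was 0.0591% (interval 0.0447 to 0.0768, 79 barcodes), while 14 control barcodes had 0.387%. The sonKD value below 2% came from a tail of barcodes, 29 of 146 with at least 2% Malat1, while the median barcode of that bin had 0.141%. The median barcode of the bins from below 2% to 20 to 40% had 0.132%, 0.482%, 0.583%, 0.671% and 0.408% in control and 0.141%, 0.428%, 0.462%, 0.466% and 0.307% in sonKD. By this measure the bin below 2% was lowest of these, and the 10 to 20% bin highest, in both libraries. Crossed with depth, barcodes of 700 to below 1250 UMIs had a summed share of 0.661% at up to 10% mt- and 0.519% above it in control, and of 0.831% and 0.211% in sonKD. From 1250 to below 2500 UMIs the pair was 0.851% and 1.00% in control and 0.922% and 0.677% in sonKD. The median barcode of the shallower pair had 0.242% and 0.307% in control and 0.140% and 0.0915% in sonKD. That of the deeper pair had 0.645% and 0.726% in control and 0.518% and 0.422% in sonKD. By the median, control was thus higher above 10% mt- at both depths, and sonKD lower.

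In cells the Malat1 share was lower in sonKD than in control, though many genes had a lower ratio. The log2 ratio was -0.27 (interval -0.28 to -0.25), and 1383 of 8063 genes had a lower one. The libraries differ in depth. With every cell thinned to 2500 UMIs, which also gives each cell equal weight, the ratio was -0.16. It was -0.17 as a mean over cells without thinning, and -0.18 with TMM scaling. The median of all genes was -0.12 on the scale of all UMIs and -0.026 after TMM scaling. Relative to the median the ratio was -0.15, which no scaling of a library can change, because it shifts every gene alike. The lower share did not mean fewer counted molecules, since sonKD cells held 25.7 Malat1 UMIs on average and control cells 21.6, at different depths. Fewer molecules per cell and a larger total of other RNA cannot be told apart in shares. In barcodes of 100 to 500 UMIs the ratio was -0.31 (-0.33 to -0.28), in barcodes of 700 to below 2500 UMIs -0.41 (-0.43 to -0.39), and in all barcodes of at least 2500 UMIs -0.11 (-0.13 to -0.10). The shallow ratio of summed shares was 0.17, with the sign turned, when only barcodes with at most 10% mt- UMIs were kept. The median barcode among these was still lower in sonKD than in control. It had 0.140% against 0.242% from 700 to below 1250 UMIs, and 0.518% against 0.645% from 1250 to below 2500 UMIs. The ratio at 2500 UMIs or more was 0.14 when each barcode was given equal weight.

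Neat1 went the other way from Malat1 between the libraries. Of 18 measured nuclear noncoding RNAs, 1 was at least 1.5-fold higher in sonKD cells, where 0.992% of all genes were, and none was 1.5-fold lower, where 1.23% of all genes were. Their median was -0.096. The RNA above that fold was Neat1, which lies 22.0 kb from Malat1 on chromosome 19 and stood at 87.2 CPM among control cells against 224 CPM among sonKD cells (log2 1.36, interval 1.30 to 1.42). Of the other measured neighbours 1 is not reported here, and the rest were Frmd8 at 0.026, Dpf2, a chromatin remodeling subunit, at -0.21, and Pola2, a subunit of DNA polymerase alpha, at 0.082. Proteins that make or bind the Malat1 3′ end, among them RNase P subunits, Elac2 (the RNase Z that trims the tRNA-like piece) and Mettl16 (which binds the triple helix), had a median of -0.033 over 14 measured genes, with none past 1.5-fold.

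Within either library, cells differed in Malat1 far more than counting alone would give. Control cells held a median of 15 Malat1 UMIs, a maximum of 196, and no Malat1 UMI in 59 of 4978 cells. In sonKD the median was 18, the maximum 232, and 24 of 2731 cells had none. The share at percentiles 5, 50 and 95 of cells was 0.0329%, 0.191% and 0.729% in control and 0.0296%, 0.160% and 0.664% in sonKD. The coefficient of variation of the share was 1.05 in control and 1.26 in sonKD, where counting error alone would give 0.228 and 0.206. The shallowest decile of cells had the highest summed share, 0.373% in control and 0.469% in sonKD, while the lowest of all deciles by depth had 0.213% and 0.176%. By the median cell, the shallowest decile had 0.191% in control, where decile 9 had 0.268%, and 0.226% in sonKD, the highest there. How much of the width lay in any decile was not tested. Correlation with the logarithm of depth was near 0, at 0.068 in control and -0.081 in sonKD.

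**Figure D3:**
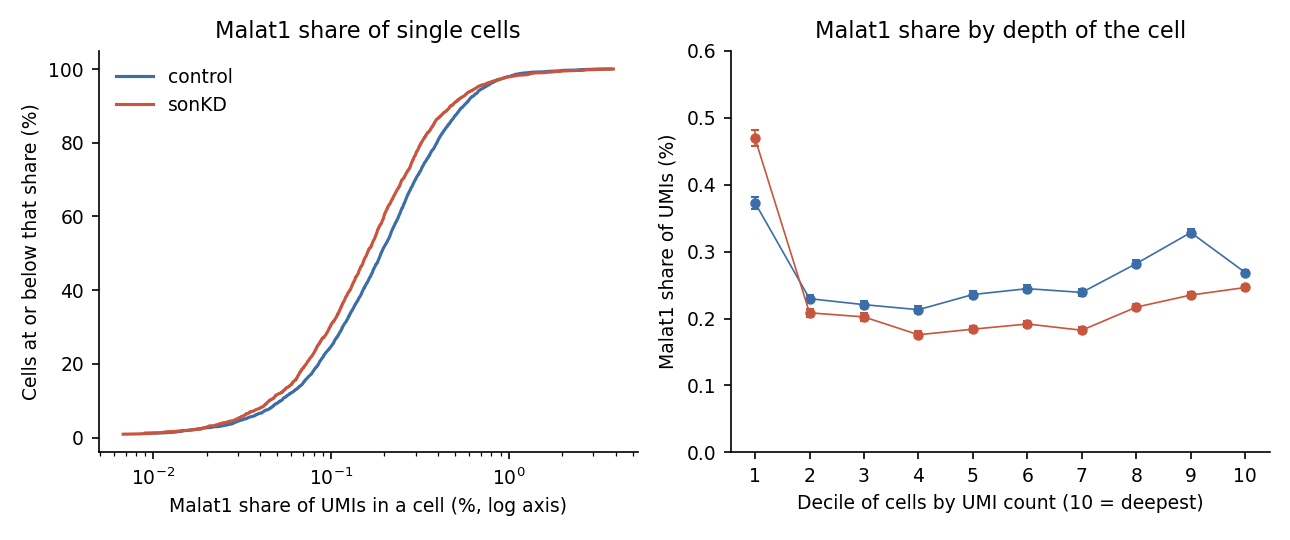
Left, percent of cells at or below each Malat1 share of UMIs (percent, log axis) for 4978 control and 2731 sonKD cells, with medians of 0.191% and 0.160%. Right, Malat1 share (percent) in each decile of cells by UMI count with exact binomial 95% intervals: sonKD is above control in the shallowest decile, at 0.469% against 0.373%, and below it in the other deciles.

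Genes that went up and down with Malat1 over cells were sorted by the weaker of their correlations in the libraries. The values are Pearson's r of log-scaled UMIs per 10000 over the cells of 1 library, which share that library's depth and preparation, and they are descriptions. Of 4999 genes with a UMI in at least 20% of cells of both libraries, 112 (2.24%) had r of at least 0.2 in both libraries and 110 (2.20%) had r of at most -0.2 in both. When every cell was thinned to 2500 UMIs, the counts were 3 and 34, all of them among the 112 and the 110. The sorting itself moved less, as 8 of the 10 highest and 8 of the 10 lowest genes were also among the 10 at each end after thinning, where the highest weaker r was 0.22.

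The 10 genes most like Malat1 were long loci and 1 nuclear noncoding RNA. Dst, which encodes a large linker of the cytoskeleton, led with r of 0.36 in control and 0.35 in sonKD. Next came Exoc4, an exocyst subunit (0.36 and 0.33), Tet1, which oxidises 5-methylcytosine (0.34 and 0.32), and Wwox, an oxidoreductase (0.34 and 0.32). The rest were Trip12, a ubiquitin ligase (0.32 and 0.33), Ranbp17, a nuclear transport receptor (0.34 and 0.32), Kcnq1ot1 (0.36 and 0.32), Macf1, a crosslinker of actin and microtubules (0.33 and 0.31), Immp2l, a peptidase subunit of the mitochondrial inner membrane (0.32 and 0.31), and Tenm4, a teneurin (0.32 and 0.31). Their loci span from 93.1 kb for Kcnq1ot1 to 931 kb for Immp2l. Locus length was not part of the sorting, and 74 of the 112 genes, or 66.1%, have loci of at least 100 kb, against 14.5% of all genes tested. The median locus was 146 kb in the 112 and 26.3 kb in all. Whether strand and intronic reads were counted is not given in the sources used here, and Kcnq1ot1 lies antisense within Kcnq1.

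The 10 genes that ran most strongly against Malat1 were all ribosomal protein genes. They were Rpl14 (r of -0.49 in control and -0.51 in sonKD), Rpsa (-0.47 and -0.47), Rpl13 (-0.49 and -0.47), Rpl8 (-0.47 and -0.46), Rpl32 (-0.45 and -0.50), Rplp0 (-0.44 and -0.44), Rps27a (-0.43 and -0.45), Rpl7 (-0.43 and -0.44), Rpl6 (-0.45 and -0.41) and Rpl11 (-0.41 and -0.42). Ribosomal protein genes made up 59 of the 110 genes against Malat1, or 53.6%, against 1.48% of all genes tested. None of the 110 has a locus of 100 kb or more, against 14.5% of all genes tested. All 74 tested ribosomal protein genes had r below 0 in both libraries, as did 1629 of the 4999 genes. The ribosomal protein genes ranged from Rpl14 to the weakest, Rpl23a at -0.023 and -0.016 and Rps2 at -0.026 and -0.057. Many of these genes have processed pseudogenes, between which the authors' counting could split reads. The ribosomal share of a cell as a whole had r of -0.61 with Malat1 in control and -0.57 in sonKD. Shares of 1 total are bound to each other. Without Malat1, mt- and ribosomal UMIs in the total, the counts were 61 genes with Malat1 and 146 against it, of which 62 were ribosomal protein genes.

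**Figure D4:**
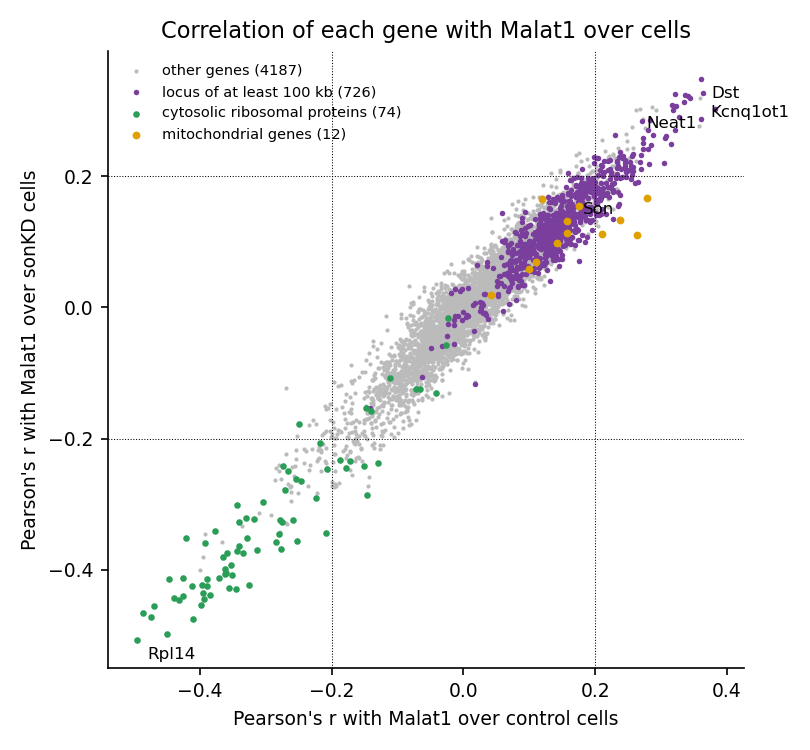
Pearson's r with Malat1 over control cells (horizontal axis) and over sonKD cells (vertical axis) for 4999 genes, 1 point per gene, with loci of at least 100 kb, ribosomal protein genes and mitochondrial genes coloured and dotted lines at 0.2 and -0.2. Long loci lie toward positive r and ribosomal protein genes toward negative r in both libraries.

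The tested nuclear noncoding RNAs had positive r with Malat1 over cells. All 13 had r above 0 in both libraries, as did 2900 of the 4999 genes, and 4 of them reached 0.2 in both, against 2.24% of all genes: Kcnq1ot1, Neat1 (0.26 and 0.30), Gm47283 (0.25 and 0.24) and Gm42418 (0.21 and 0.26). Gm42418, like AY036118 a member of this list throughout, is a gene model known to collect ribosomal RNA reads. After thinning none of the 4 reached 0.2 in both: the genes that did were Dst, Exoc4 and Wwox, and the weaker r of Kcnq1ot1 was 0.17 and that of Neat1 0.15. The list's lowest were Platr10 (0.034 and 0.066) and Platr4 (0.074 and 0.069). None of 29 tested nuclear speckle proteins reached 0.2 in both, a count near the 2.24% of all genes. The highest were Srrm2, a speckle scaffold (0.22 and 0.18), and Son (0.17 and 0.17), and the lowest Srsf3, an SR splicing factor (-0.14 and -0.14), and Ddx39b, an RNA helicase of export (-0.069 and -0.055). The median r of the speckle list was 0.088 in control and 0.090 in sonKD, against 0.041 and 0.032 over all genes tested. The same holds for the 15 paraspeckle proteins, of which none reached 0.2 in both, with Taf15 (0.18 and 0.24) highest, and Dazap1 (-0.036 and -0.051) and Hnrnpk (0.0069 and -0.029) lowest.

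The remaining lists lay nearer to 0 or below it. Of 13 tested genes of Malat1 end processing, none reached 0.2 in either direction, and 9 had r below 0 in both libraries, as did 1629 of the 4999 genes. Pop1, an RNase P subunit (0.064 and 0.057), and Mettl16 (0.032 and -0.0053) were highest, and Rpp25l (-0.085 and -0.089) and Pop5 (-0.067 and -0.066) lowest. The tested neighbours of the locus other than Neat1 were Dpf2 (0.042 and 0.037) and Pola2 (0.031 and 0.028). All 12 tested mt- mRNAs had r above 0 in both libraries, where 2900 of the 4999 genes did, without reaching 0.2 in both, from mt-Nd2 (0.28 and 0.17) and mt-Co3 (0.18 and 0.15) to mt-Cytb (0.10 and 0.059) and mt-Atp8 (0.041 and 0.019). All 20 tested abundant cytoplasmic mRNAs had r below 0 in both libraries, where 1629 of the 4999 genes did. Of the 20, 8 ran against Malat1 with r of at most -0.2 in both, where 2.20% of all genes did. Ppia, cyclophilin A (-0.29 and -0.32), and Tmsb10, which binds actin monomers (-0.26 and -0.28), were lowest. Eef2, elongation factor 2 (-0.037 and -0.078), and Hspa8, a heat shock cognate chaperone (-0.079 and -0.036), were nearest to 0.

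Sorting cells into quintiles by their Malat1 share gave the levels behind these correlations. The quintiles are ranges of 1 continuous measure, not cell types, and the highest began at 0.395% in control and 0.323% in sonKD. Malat1 ran from 0.0519% in the lowest quintile to 0.628% in the highest in control and from 0.0449% to 0.544% in sonKD, which the sorting fixes. Over these quintiles Neat1 ran through 48.5, 58.5, 73.3, 97.1 and 157 CPM in control and through 131, 163, 202, 262 and 366 CPM in sonKD. Neat1 was thus higher in the lowest sonKD quintile than in control quintile 4. Kcnq1ot1 went from 82.2 to 308 CPM in control and from 85.7 to 269 CPM in sonKD. Son went from 127 to 204 CPM in control and from 79.4 to 134 CPM in sonKD.

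Broad shares of the transcriptome shifted across the same quintiles. Genes of at least 100 kb took 5.16% of UMIs in the lowest control quintile and 9.82% in the highest, and 5.02% and 8.65% in sonKD. Ribosomal protein genes took 23.2% and 17.9% in control and 26.1% and 21.4% in sonKD. The mt- share went from 3.53% to 4.16% in control, while in sonKD it ran through 4.13%, 4.06%, 4.17%, 4.09% and 4.60%. The median depth went from 7130.5 to 8227 UMIs in control, while in sonKD it ran through 10722, 11713, 12109.5, 12074.5 and 11207.5 UMIs. With Malat1 left out of the total, 36.7% of 8146 genes in control and 32.4% of 7958 in sonKD were at least 1.5-fold higher in the highest than in the lowest quintile, and 1.93% and 0.754% were 1.5-fold lower. Among genes of at least 100 kb, 994 of 1145 and 898 of 1131 were higher by that fold. Of the 18 and 17 nuclear noncoding RNAs measured, 13 and 11 were. The part of depth and mt- share in these shifts was not tested.

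**Figure D5:**
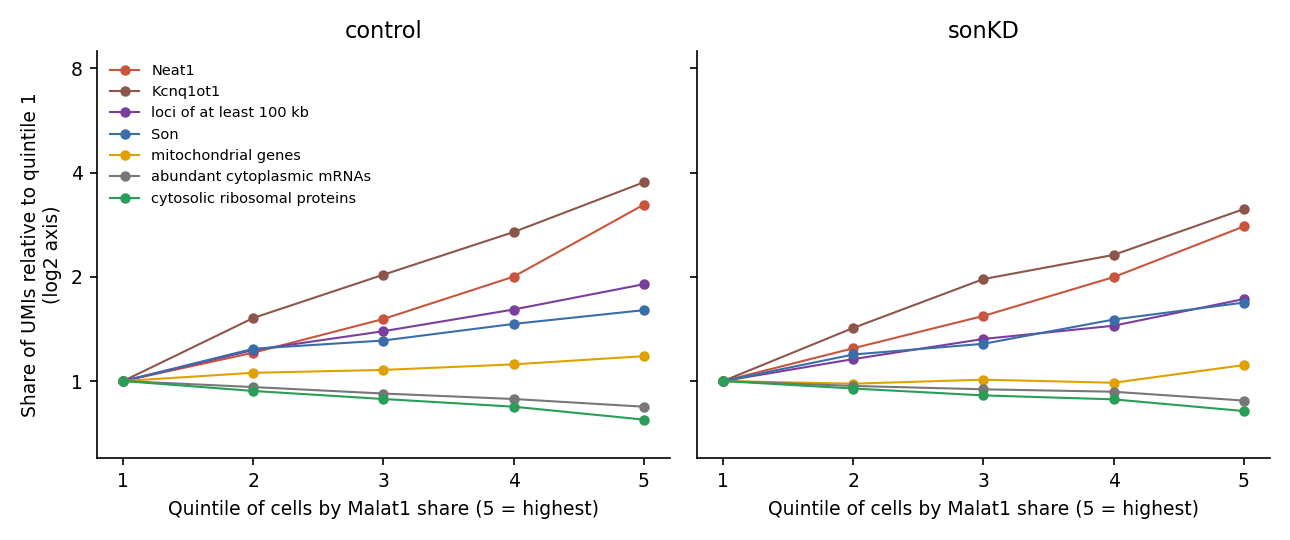
Level in each quintile of cells by Malat1 share relative to the lowest quintile (log axis), for Neat1, Kcnq1ot1, Son and 4 summed gene groups, with 1 panel per library and no error bars. Neat1, Kcnq1ot1 and long loci increase from the lowest to the highest quintile in both libraries, and ribosomal protein genes decline.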

How the data were processed

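The values are deposited counts of UMIs, unnormalised, as 1 sparse matrix per library, which the authors made with Cell Ranger 7.1.0 on mm10, per the submitters' processing notes. Which annotation was counted, and whether intronic reads and strand were used, is not given in the sources used here. All listed barcodes were kept, 1408944 in control and 1400093 in sonKD, and counts were summed per class. Shares have exact binomial (Clopper-Pearson) 95% intervals, and ratios exact conditional binomial intervals; both cover counting error only. Ratios were called past 1.5-fold among genes averaging 10 CPM or more. With 1 library per group no test was made. Doublets were kept in the values reported, because Scrublet (scanpy 1.11.5) called 3 control and 1 sonKD cells; removing the 198 and 60 highest scores is an alternative. Further alternatives, among them thinning to 2500 UMIs, TMM (edgeR 4.0.16, R 4.3.3), other totals and other limits, are in the closing section. Python 3.11.15, numpy 2.4.6 and pandas 2.3.3 were used, and the scripts were tested on simulated data. Of 32285 gene IDs, 32235 matched GENCODE M21 (GRCm38), which gave gene spans and the transcript sequence.

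Malat1, the gene lists and the comparisons were chosen with earlier results of these data known. Named genes are Malat1, Son and Neat1, the 10 genes at each end of the correlation with Malat1, the 2 highest and 2 lowest tested members of each list, and the measured neighbours of the locus; 2 genes that this rule names are not reported here. The crossing of depth with mt- share was added after the bins were seen. Kcnq1ot1, Gm42418 and AY036118 in the class comparisons, and Gm47283 among the 4 noncoding RNAs past 0.2, were named after their values were seen.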

Additional observations from a re-analysis of the deposited data

Results flagged for a closer look

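These results are named because control and sonKD had opposite signs in the same comparison of summed shares or of correlations; with 1 library each, the difference was not tested. In barcodes of 700 to below 2500 UMIs, the log2 ratio of the Malat1 share against barcodes below 2% mt- UMIs was 0.39 in control and -0.64 in sonKD at 5 to 10% mt-. It was 0.63 and -0.67 at 10 to 20%, and 0.15 and -1.06 at 20 to 40%. Taken against the 2 to 5% bin, the 10 to 20% bin had 0.32 in control and -0.26 in sonKD. These opposite signs are those of summed shares. By the median barcode, not crossed with depth, each of these bins was above the bin below 2% in both libraries. The 10 to 20% bin was above the 2 to 5% bin in control (0.671% and 0.482%) and in sonKD (0.466% and 0.428%). Crossed with depth, medians also had opposite signs. From 700 to below 1250 UMIs they were 0.242% at up to 10% mt- and 0.307% above it in control, and 0.140% and 0.0915% in sonKD. From 1250 to below 2500 UMIs they were 0.645% and 0.726% in control, and 0.518% and 0.422% in sonKD. The sonKD bins below 2% and of 2 to 5% hold 146 and 59 barcodes, and those of control 181 and 68. Over cells, the correlation of the Malat1 level with the logarithm of UMI count was 0.068 in control and -0.081 in sonKD, both near 0.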

How the results depend on the processing

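The sonKD over control log2 ratio of Malat1 in cells was below 0 under all 9 alternatives. It moved from -0.27 to -0.30 with at least 5000 UMIs, -0.19 without mt- and ribosomal UMIs, -0.18 with TMM, -0.17 as a mean over cells and -0.16 after thinning, and 4 alternatives left it within its interval. The first of these leaves out the shallowest cells; for the others the cause was not tested. At 100 to 500 UMIs it was -0.20 without mt- and ribosomal UMIs. At 700 to below 2500 UMIs it was -0.35 without mt- UMIs, -0.31 also without ribosomal UMIs, -0.37 as a mean over barcodes and, reversed in summed shares but not in the medians given above, 0.17 at up to 10% mt-. At 2500 UMIs or more these gave -0.095, -0.037, 0.14 (reversed) and -0.27, and 5000 UMIs or more gave -0.26. Shallow over deep class, with main log2 ratios of 1.51 in control and 1.21 in sonKD, gave 1.71 and 1.46 without mt- UMIs, 1.61 and 1.33 also without ribosomal UMIs, 1.07 and 0.56 as a mean over barcodes, 1.77 and 1.62 with a deep class from 5000 UMIs, and 1.60 and 2.03 at up to 10% mt-. The 100 to 500 over deep class ratio, -1.31 and -1.50, gave in the same order -1.36 and -1.57, -1.12 and -1.28, -1.62 and -2.08, -1.04 and -1.09, and -1.06 and -1.11. The 10 to 20% over 2 to 5% mt- ratio, 2.40 and 2.11, gave 2.57 and 2.30 without mt- UMIs, 2.42 and 2.14 also without ribosomal UMIs, 2.47 and 2.16 as a mean over barcodes, 1.69 and 1.71 from 5000 UMIs, and 0.32 and -0.26 (reversed) at 700 to below 2500 UMIs. Of the gene counts, 112 with and 110 against Malat1, those with it were 61 on a total without Malat1, mt- and ribosomal UMIs, and after thinning, which lowers every count, they were 3 and 34. Their other alternatives stayed within 1.5 times, from 82 to 162 with and 83 to 146 against. Named genes kept their side of 0.2 in 167 of 175 values, and the 8 below it were after thinning. Depth limits the gene counts, which moved on thinning, and 1 library per group limits every comparison of control with sonKD. The cell ratio also moved on thinning, which gives each cell equal weight. As a mean over cells, which does so without thinning, it moved about as far, and the part of depth in it was not tested. No paired analysis was possible because each group holds 1 library and no test was made.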

Other observations

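Barcodes outside the 3 classes held Malat1 at other levels. Those below 100 UMIs, 1068633 in control and 1009716 in sonKD, had summed shares of 0.317% (exact binomial 95% interval 0.309 to 0.326) and 0.232% (0.225 to 0.240), against 0.126% and 0.102% at 100 to 500 UMIs. Those above 500 and below 700 UMIs had 0.212% in 742 control barcodes and 0.143% in 679 sonKD barcodes. Barcodes below 100 UMIs also had mt- shares of 11.3% and 12.1%, against 0.982% and 0.961% at 100 to 500 UMIs, and Neat1 at 134 and 227 CPM, against 19.9 and 20.7 CPM.

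Tsix, the antisense partner of Xist, was detected at 72.2 CPM in control cells and 71.2 CPM in sonKD cells, and had r of 0.18 and 0.22 with Malat1. Xist itself was at 1.27 and 1.19 CPM in the same cells. Pvt1 (0.16 and 0.15) and Firre (0.13 and 0.14), chromatin-associated noncoding RNAs, had lower r with Malat1. These genes are members of the nuclear noncoding list named after their values were seen.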
